A study of Mus musculus with 15 samples.

Results

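The genes described here are 8 mouse testis genes, 4930568E12Rik, Sfi1, Adamts9, 4930486L24Rik, Scoc, Hs6st2, Gprin3 and Col28a1, chosen for being higher than wild type to a similar degree in heterozygous and homozygous mutants. They are 8 of 20782 features with enough reads to be tested, out of 50051 features counted. The study compared testes of mice lacking a chromosome 18 locus that makes pachytene piRNAs. Total RNA was sequenced from 3 homozygous mutant (Chr18-/-, Homo), 3 heterozygous (Chr18+/-, Het) and 3 wild-type (Chr18+/+, WT) libraries, and periodate-treated small RNA from 3 Homo and 3 Het libraries. All were labelled as testis of B6D2F1 animals, the F1 hybrid of C57BL/6 and DBA/2, at postnatal day 28. The labels name the heterozygotes as a control, and the way the deletion was made is not given in the sources used here. Nothing in the labels says that the libraries of a group came from separate animals, so the spread and the p-values measure differences between these libraries.

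Pachytene piRNAs are small RNAs that bind PIWI proteins in meiotic and postmeiotic male germ cells and are cut from long precursor transcripts. A methyl group on the sugar of their last nucleotide protects them from periodate, and the treatment therefore enriches them. In juvenile mouse testis the first wave of germ cells passes through meiosis and spermatid differentiation in near synchrony, so the mix of cell types changes from week to week.

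The 8 genes have little in common by known role. Sfi1 encodes a centrin-binding protein of the centrosome, first described in budding yeast. Scoc encodes a short coiled-coil protein of the Golgi that binds the GTPase ARL1 and takes part in starvation-induced autophagy. Gprin3 encodes a membrane-associated protein of a family that binds Gi and Go alpha subunits. Hs6st2 encodes a heparan sulfate 6-O-sulfotransferase, Adamts9 a secreted metalloprotease that cleaves the proteoglycans versican and aggrecan, and Col28a1 a collagen chain. 4930568E12Rik is a long intergenic non-coding RNA, and 4930486L24Rik is a protein-coding gene known by its clone name. All 8 lie on the minus strand, as do 49.8% of the tested features and 50.2% of the features raised alike. Adamts9, Gprin3 and Col28a1 lie on chromosome 6, which holds 5.32% of the tested features, and Hs6st2 lies on the X chromosome.

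The promoters of these genes were unlike each other, and 3 of them are shown to make the contrast visible, from the RefSeq windows of build GRCm38.p6 that run from 250 bases before to 50 bases after a transcript start. Windows existed for 7 of the 8 genes (9 windows), all but Sfi1. The 4930568E12Rik window, chr9:13105806-13106105 on the minus strand, is shown because a second non-coding RNA, Gm47051, starts inside it and runs the other way. Its capitals mark the 154 bases between the 2 annotated starts.
4930568E12Rik: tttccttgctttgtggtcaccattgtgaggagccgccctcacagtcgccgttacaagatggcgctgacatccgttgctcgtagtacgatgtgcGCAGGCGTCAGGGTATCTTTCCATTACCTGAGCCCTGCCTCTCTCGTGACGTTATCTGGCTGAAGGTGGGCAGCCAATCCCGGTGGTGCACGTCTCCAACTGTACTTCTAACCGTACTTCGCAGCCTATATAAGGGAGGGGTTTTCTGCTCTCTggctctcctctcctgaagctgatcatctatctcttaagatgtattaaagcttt
The 4930486L24Rik window, chr13:60864367-60864666 on the minus strand, and the Gprin3 window, chr6:59426257-59426556 on the minus strand, are shown as a CpG-free and a CpG-rich promoter of the 2 genes with the lowest levels, with each CpG in capitals.
4930486L24Rik: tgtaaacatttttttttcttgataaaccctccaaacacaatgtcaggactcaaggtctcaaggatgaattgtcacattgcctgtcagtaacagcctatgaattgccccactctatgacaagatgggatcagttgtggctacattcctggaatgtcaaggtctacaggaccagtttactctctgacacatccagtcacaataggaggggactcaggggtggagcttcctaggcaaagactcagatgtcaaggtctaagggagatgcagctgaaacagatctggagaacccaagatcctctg
Gprin3: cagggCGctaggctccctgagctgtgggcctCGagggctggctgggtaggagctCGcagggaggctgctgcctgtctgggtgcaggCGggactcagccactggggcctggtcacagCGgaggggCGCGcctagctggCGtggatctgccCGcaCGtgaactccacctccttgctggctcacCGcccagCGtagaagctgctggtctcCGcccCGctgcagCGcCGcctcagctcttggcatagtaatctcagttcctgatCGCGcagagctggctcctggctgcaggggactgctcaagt
The 4930486L24Rik window held 0 CpG and was 45.67% G or C, whereas the Gprin3 window held 18 CpG and was 67.67% G or C. The median over all 32851 windows was 7 CpG and 52.7% G or C. Col28a1 also had 0 CpG in its window, while Adamts9 had 25 and the 2 windows of Hs6st2 had 12 and 33.

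No motif searched on both strands was found in every window. CNGTTG, the core bound by MYB-family factors, occurred in 4 of the 9 windows and in 35.02% of all windows. TGACGTCA, the full cAMP response element, occurred in 0 of 9 and in 1.79% of all windows. Its shorter form TGACG occurred in 4 of 9 against 20.81%, GGGCGG in 4 of 9 against 35.66%, CCAAT in 3 of 9 against 37.41%, and TATANA in 2 of 9 against 24.67%. The 2 Scoc windows and the 2 Hs6st2 windows belong to the same genes, and TGACG also lies within TGACGTCA. In the 154 bases between the starts of 4930568E12Rik and Gm47051, CCAAT began at base 167 of the window and TATANA at base 220, which matches on both strands there. The same stretch held CNGTTG at base 190 on the strand opposite to the one shown. TGACG lay there at base 99 on the opposite strand and at base 140 on the strand shown.

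The 4930568E12Rik window aligned with 20 other promoter windows, 11 of them over at least 100 bases. The closest long match was Gm12763, a non-coding gene on chromosome 7, which was 88% identical over 275 aligned positions in the opposite orientation. The stretch below is read on the strand that matches 4930568E12Rik, chr7:33653232-33653495 on the minus strand, and capitals mark the 22 bases that differ from the 4930568E12Rik window or are inserted against it.
Gm12763: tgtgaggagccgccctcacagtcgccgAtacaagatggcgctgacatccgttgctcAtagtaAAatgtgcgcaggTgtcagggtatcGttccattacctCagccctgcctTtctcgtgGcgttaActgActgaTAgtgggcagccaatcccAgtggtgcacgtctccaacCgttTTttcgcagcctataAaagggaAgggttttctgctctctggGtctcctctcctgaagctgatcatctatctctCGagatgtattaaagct
Its level lay on the opposite side of WT from that of 4930568E12Rik. Gm12763 averaged 14.3 ± 0.43 CPM in Homo, 12.9 ± 1.4 CPM in Het and 29.3 ± 2.0 CPM in WT (SD, n = 3 each; CPM, the count scaled to a common library size). Gm12763 fell by 1.04 on the log2 scale in Homo against WT (SE 0.11, edgeR adjusted p = 0.000138) and by 1.19 in Het against WT (SE 0.11, edgeR adjusted p = 5.48e-05). Genes of 4 of these 20 windows were tested, and the other matches did not share this direction throughout. 4930481A15Rik, 71.0% identical over 155 positions, rose by 0.72 in Homo (edgeR adjusted p = 0.0448), while its 0.50 in Het did not pass (edgeR adjusted p = 0.137). That Homo call was lost with any single WT or Homo library, Het replicate 1 or Het replicate 2 left out and in 2 other settings (0.0509 to 0.143), and with both strands summed 4930481A15Rik was lower instead, at -1.15 in Homo and -0.78 in Het. Gm12648, 78.5% identical over 93 positions, stood at 0.22 in Homo and 0.33 in Het (edgeR adjusted p = 0.30 and 0.106), and passed in Het without Het replicate 2 (0.0455). Eps8l1, matched over 49 positions, stood at -0.36 and -0.11 (edgeR adjusted p = 0.450 and 0.830).

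Total counts were 21684791 to 41513634 per RNA-seq library and 939641 to 1861402 per small RNA library. The minus-strand precursor at the targeted locus had 4, 6 and 3 counts in Homo, 8948, 3983 and 4422 in Het, and 9595, 7283 and 5609 in WT. Scaled for depth, it had 0.142, 0.210 and 0.115 CPM in Homo, 205, 133 and 152 CPM in Het, and 296, 269 and 255 CPM in WT. The CPM values, unlike the raw counts, keep every library in the order the labels give. Pachytene spermatocyte and round spermatid markers were present at summed levels of 6705 to 7487 CPM and 2625 to 3141 CPM over the 9 libraries. Elongating spermatid markers were lower, at 11050 to 14177 CPM in Homo and 6847 to 15820 CPM in Het, against 19028 to 19759 CPM in WT. Genes were counted over the whole gene body, so reads from unspliced transcripts are included, and the opposite strand held 8.81% to 10.7% as many reads per library. In bulk tissue, fewer cells of a type and less RNA per cell cannot be told apart.

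The sense-strand level of every one of the 8 genes was higher in all 3 Homo and all 3 Het libraries than in all 3 WT libraries. Over all tested features 15.0% did so, and since the genes were chosen on these libraries nothing is read from that difference. For the same reason the fold changes of the 8 genes are given with their standard errors as a description and without a test. The comparisons of Homo with WT and of Het with WT share the 3 WT libraries and are not independent of each other. Similar degree was read as being called higher in both comparisons with a Homo minus Het log2 difference of under 0.3 in size, which 1493 features met (7.18% of those tested). Of the 8 genes 7 met it. Between Homo and Het themselves 0.0289% of all features were called in either direction. Sfi1 stood just inside at a Homo minus Het log2 difference of -0.27 and Col28a1 outside at -0.45, so by this limit Col28a1 was not raised alike. The limit was set here, and a Homo minus Het difference is not taken as shown for either gene.

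**Figure D1:**
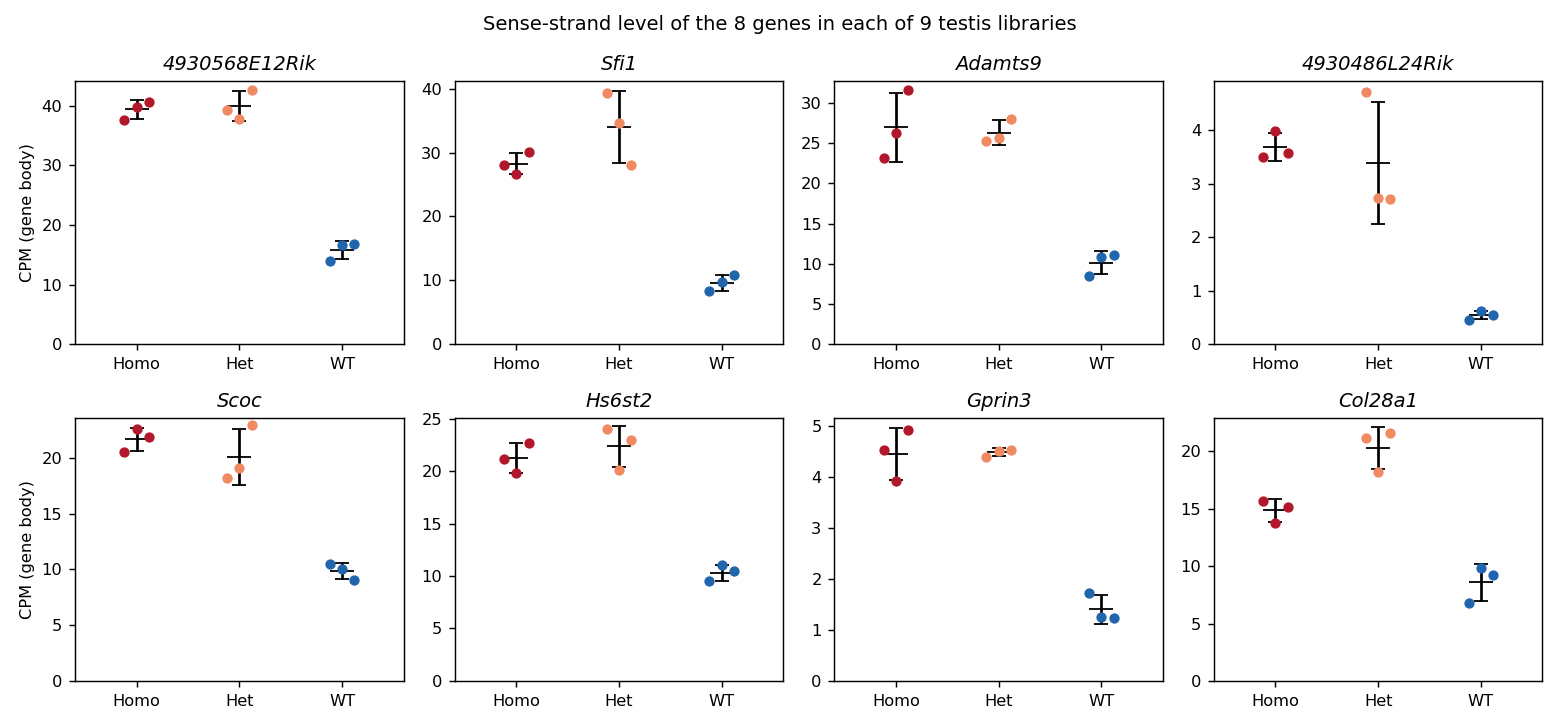
Sense-strand level in CPM (y axis, from 0) of each of the 8 genes in the 3 Homo, 3 Het and 3 WT RNA-seq libraries; points are libraries and black marks the mean ± SD. The Homo and Het points lie above all WT points in every panel, and they lie apart from each other only for Col28a1.

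4930568E12Rik, the non-coding RNA (chromosome 9, 13091256 to 13105858, build mm10), had 37.6, 39.8 and 40.7 CPM in Homo, 39.3, 37.8 and 42.7 CPM in Het, and 14.0, 16.6 and 16.8 CPM in WT. Homo and Het libraries were interleaved, and the lowest of them was 2.23 times the highest WT library. Against WT the log2 difference was 1.32 in Homo (SE 0.10) and 1.34 in Het (SE 0.10). Homo minus Het was -0.02 with a 95% interval of -0.21 to 0.17. The opposite strand of the same gene body held 0 to 2 counts per library, the cleanest strand separation of the 8 genes. Per kilobase of gene body it was also the most abundant of them, at 2.70 CPM per kb in Homo, 2.73 in Het and 1.08 in WT.

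Sfi1, the centrin-binding gene (chromosome 11, 3131850 to 3193463), had 28.1, 26.7 and 30.1 CPM in Homo, 39.3, 34.6 and 28.1 CPM in Het, and 8.32, 9.68 and 10.8 CPM in WT. Het replicate 3 fell within the Homo range while the other Het libraries lay above it. Against WT it stood 1.56 (SE 0.14) higher in Homo and 1.83 (SE 0.14) higher in Het on the log2 scale. Homo minus Het was -0.27 with a 95% interval of -0.52 to -0.01, a normal interval that ends close to 0 and is too narrow for so few libraries. Drg1, a GTPase gene on the same strand, overlaps 9.91% of Sfi1. It averaged 105 ± 1.2 CPM in Homo, 98.2 ± 6.6 CPM in Het and 122 ± 6.9 CPM in WT (SD, n = 3 each), and its log2 difference was -0.21 in Homo (edgeR adjusted p = 0.0916) and -0.31 in Het (edgeR adjusted p = 0.0209). The Het call of Drg1 was lost without WT replicate 1, without Het replicate 1 and under 3 other settings, at adjusted p of 0.0531 to 0.0960. Gm2420, a transcript 95.5% identical to Sfi1 over 396 bases, averaged 1.06 CPM in Homo, 1.21 CPM in Het and 1.17 CPM in WT, and how reads were split between them is uncertain.

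Scoc, the Golgi and autophagy gene (chromosome 8, 83430084 to 83458391), had 20.5, 22.6 and 21.9 CPM in Homo, 18.2, 19.0 and 22.9 CPM in Het, and 10.5, 10.0 and 9.05 CPM in WT. The Homo and Het libraries overlapped each other and stood clear of WT. The log2 difference was 1.13 (SE 0.12) in Homo and 1.02 (SE 0.12) in Het against WT, or 2.19-fold and 2.03-fold. Homo minus Het was 0.11 with a 95% interval of -0.11 to 0.33. Gm7335, 97.6% identical to Scoc transcripts over 373 bases, averaged 1.04 CPM in Homo, 0.801 CPM in Het and 1.56 CPM in WT, and its share of Scoc reads is uncertain. Its level was lower rather than higher in the mutants, with log2 differences of -0.58 in Homo (edgeR adjusted p = 0.124) and -0.95 in Het (edgeR adjusted p = 0.0207). Without WT replicate 2, WT replicate 3 or Het replicate 3 the adjusted p in Het was 0.0546 to 0.0680.

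Gprin3, the G protein binding gene (chromosome 6, 59347226 to 59426294), was among the least abundant, with 4.53, 3.92 and 4.93 CPM in Homo, 4.39, 4.51 and 4.54 CPM in Het, and 1.73, 1.26 and 1.23 CPM in WT. The 3 Het libraries were the tightest of any group and gene, with a coefficient of variation of 1.72%, and they sat inside the Homo range. On the log2 scale the difference was 1.65 (SE 0.18) in Homo and 1.66 (SE 0.18) in Het against WT, and Homo minus Het was -0.01 (95% interval -0.33 to 0.31). The WT libraries rest on 56, 34 and 27 counts. The opposite strand carried as many reads as the sense strand in WT and did not separate the groups, at 1.83 ± 0.55 CPM in Homo, 2.21 ± 0.55 CPM in Het and 1.87 ± 0.52 CPM in WT (SD, n = 3 each). That was 40.8% of the sense level in Homo, 49.9% in Het and 126% in WT. With both strands summed, as an unstranded count would do, the log2 difference was 0.96 in Homo and 1.05 in Het.

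4930486L24Rik (chromosome 13, 60842621 to 60864416) had the largest fold of the 8 and the lowest WT level. Its transcripts were 100% identical to Gm49392 over 1270 bases and to Gm49393 over 503 bases. Neither was among the features counted, and how reads were split between them and 4930486L24Rik is uncertain. 4930486L24Rik had 3.51, 3.99 and 3.58 CPM in Homo, 4.71, 2.74 and 2.72 CPM in Het, and 0.462, 0.628 and 0.546 CPM in WT. Het replicate 1 was the highest library and the other Het libraries were below all Homo libraries, giving a coefficient of variation of 33.8% in Het and 7.00% in Homo. The log2 difference was 2.76 (SE 0.28) in Homo and 2.65 (SE 0.28) in Het against WT, and Homo minus Het was 0.11 (95% interval -0.33 to 0.55). Without Het replicate 1 the Het value was 2.32. The WT libraries rest on only 15, 17 and 12 counts, and the opposite strand held 81.8% of the WT sense level. Summing both strands gave 2.05 in Homo and 1.99 in Het. By the Homo minus WT log2 difference it held rank 2 among the 1493 features raised alike, where Gprin3 held rank 27, Sfi1 rank 36, Adamts9 rank 52, 4930568E12Rik rank 61, Scoc rank 84 and Hs6st2 rank 107.

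Adamts9, the versican-cleaving protease (chromosome 6, 92772699 to 92943492), had 23.1, 26.2 and 31.6 CPM in Homo, 25.3, 25.6 and 28.1 CPM in Het, and 8.54, 10.9 and 11.1 CPM in WT. All Het libraries lay inside the Homo range. Log2 differences were 1.41 (SE 0.14) in Homo and 1.38 (SE 0.14) in Het against WT, and Homo minus Het was 0.04 (95% interval -0.22 to 0.29). On the opposite strand lie A730049H05Rik and Gm15737, both too low to be tested, and the antisense gene 9530026P05Rik, which covers 1.85% of Adamts9. That antisense gene averaged 8.36 ± 1.9 CPM in Homo, 11.5 ± 2.9 CPM in Het and 8.68 ± 0.98 CPM in WT (SD, n = 3 each), with log2 differences of -0.06 (edgeR adjusted p = 0.872) and 0.40 (edgeR adjusted p = 0.159). Over the Adamts9 body the opposite-strand level was 1.70 CPM in Homo, 1.53 CPM in Het and 1.08 CPM in WT. That was 6.30% of the sense level in Homo, 5.66% in Het and 10.6% in WT.

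Hs6st2, the heparan sulfate 6-O-sulfotransferase gene (chromosome X, 51387212 to 51681856), had 21.1, 19.8 and 22.7 CPM in Homo, 24.0, 20.2 and 22.9 CPM in Het, and 9.50, 11.0 and 10.5 CPM in WT. Homo and Het libraries were again interleaved. The log2 difference was 1.04 (SE 0.11) in Homo and 1.12 (SE 0.11) in Het against WT, and Homo minus Het was -0.08 (95% interval -0.28 to 0.13). The opposite strand held 0 to 6 counts per library. It was the longest of the 8 gene bodies, 294645 bases, and its level per length was 0.0720 CPM per kb in Homo, 0.0759 in Het and 0.0350 in WT.

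Col28a1, the collagen gene (chromosome 6, 7997808 to 8192617), was the exception to the shared pattern. It had 15.7, 13.7 and 15.1 CPM in Homo, 21.2, 18.2 and 21.6 CPM in Het, and 6.78, 9.83 and 9.23 CPM in WT. The 3 groups did not overlap, with Het highest and Homo between Het and WT. How many of all tested features separate Homo from Het in this way was not counted, so nothing is read from it. The log2 difference was 0.79 (SE 0.14) in Homo and 1.24 (SE 0.14) in Het against WT, or 1.73-fold and 2.37-fold. Homo minus Het was -0.45, with a 95% interval of -0.72 to -0.18 that is too narrow for so few libraries. No test of this difference is given, and it is not read as established. Its opposite-strand level was also lower in WT, at 2.34 ± 0.13 CPM in Homo, 2.53 ± 0.46 CPM in Het and 1.41 ± 0.20 CPM in WT (SD, n = 3 each).

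**Figure D2:**
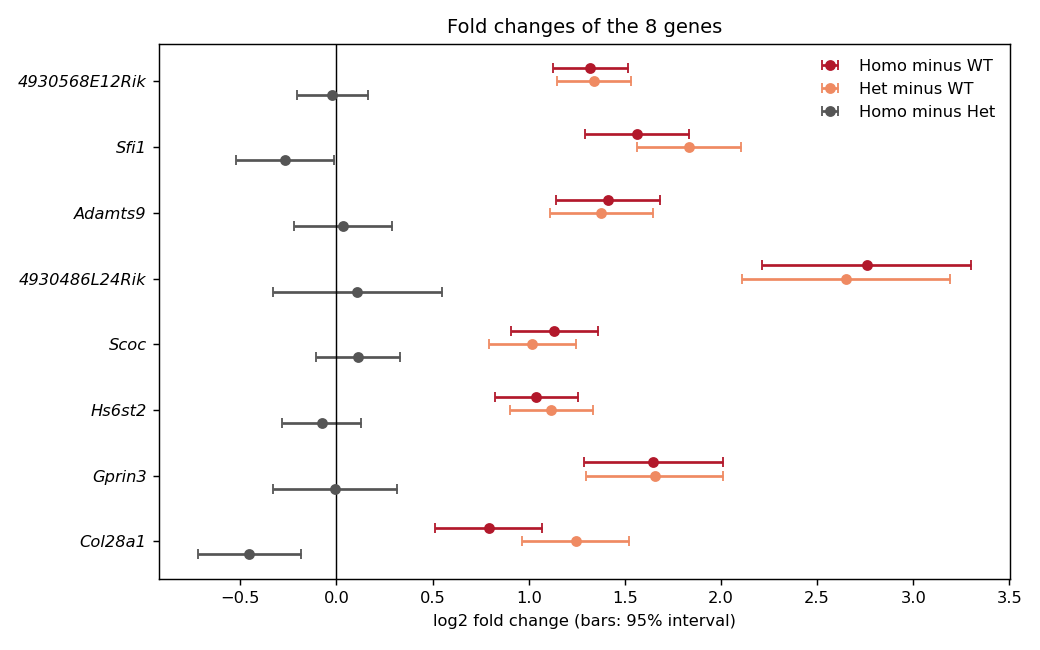
Log2 fold change (x axis) of the 8 genes for Homo minus WT, Het minus WT and Homo minus Het, with 95% intervals as bars. The Homo minus Het bars include 0 for 6 genes and lie below 0 for Sfi1 (-0.27) and Col28a1 (-0.45). The bars are normal intervals, too narrow for so few libraries, and the Sfi1 bar ends at -0.01.

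**Figure D3:**
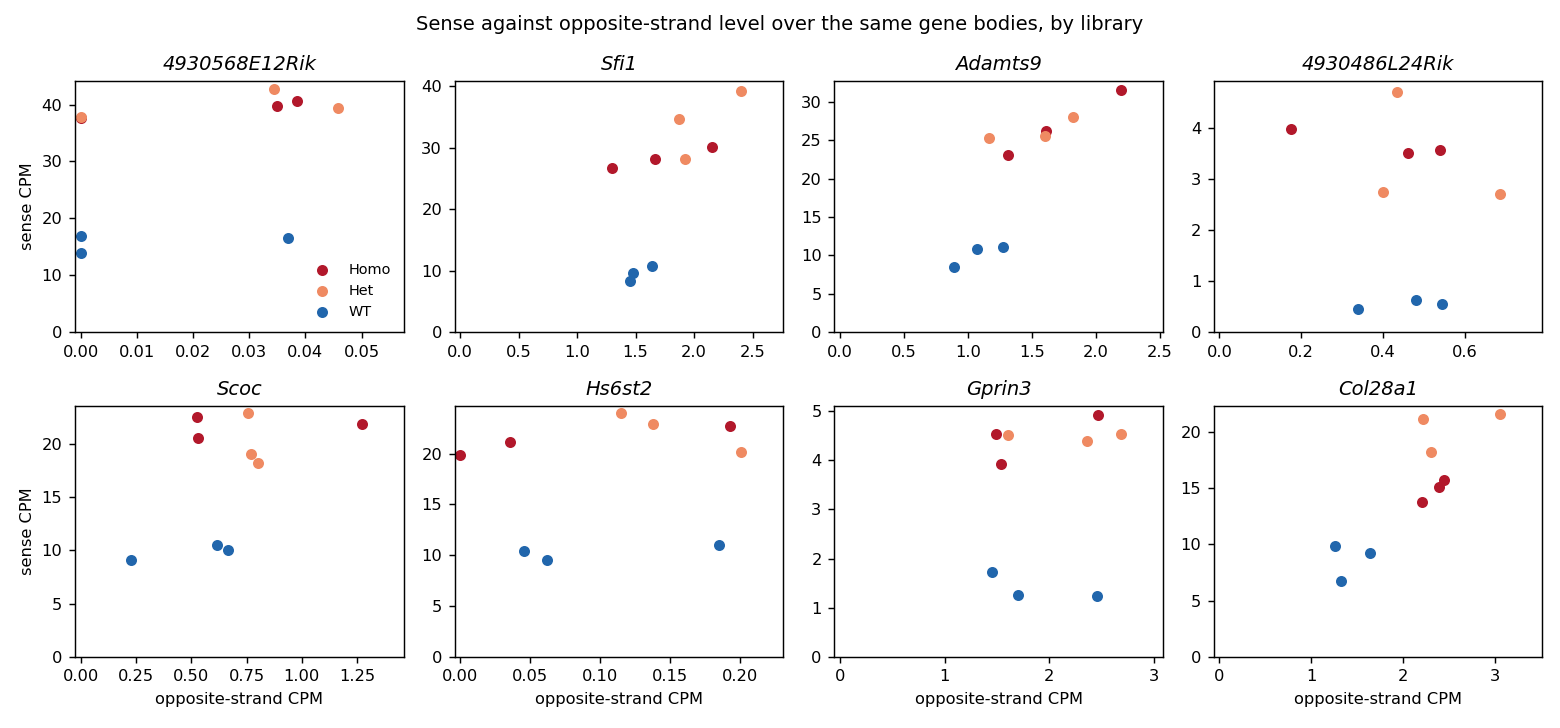
Sense CPM (y axis, from 0) against opposite-strand CPM (x axis) over the same gene bodies, 1 point per library. For Gprin3 and 4930486L24Rik the WT libraries overlap the Homo and Het libraries along the x axis and differ from them along the y axis.

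Within the group, the 28 pairwise Pearson correlations of log2 CPM over the 9 libraries ran from 0.83 to 0.99. The libraries fall into separate clusters, Homo with Het and WT alone for 7 genes and each group by itself for Col28a1, so these values describe the gaps between clusters and no relation within one. The mean of the 8 standardised profiles was 0.54, 0.53 and 0.71 in Homo, 0.77, 0.58 and 0.75 in Het, and -1.44, -1.19 and -1.25 in WT. The 5 other features closest to that mean profile, out of 17467 with a mean of at least 1 CPM, were Orc6, a subunit of the origin recognition complex (r = 0.993), Slc35b3, a transporter of the sulfate donor used by enzymes such as Hs6st2 (r = 0.990), 4833420G17Rik (r = 0.990), the splicing factor Srsf3 (r = 0.989) and the histone chaperone Nap1l1 (r = 0.989). As many as 232 features had an r of at least 0.95. Orc6 averaged 24.7 ± 0.28 CPM in Homo, 24.6 ± 1.6 CPM in Het and 15.0 ± 0.79 CPM in WT (SD, n = 3 each). Slc35b3 averaged 15.4 ± 0.42 CPM in Homo, 16.0 ± 0.91 CPM in Het and 11.2 ± 0.19 CPM in WT (SD, n = 3 each). Homo minus WT log2 differences were 0.72 for Orc6 and 0.46 for Slc35b3.

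Few small RNA reads fell on the 8 genes. In the small RNA libraries, which played no part in the choice of the genes, counts over their exons came to 60 of 3844790 in Homo and 56 of 3962696 in Het, and no WT small RNA library is part of the comparison. Sfi1 alone passed the filter on low counts. It had 15, 15 and 9 counts in Homo and 6, 4 and 21 counts in Het, or 10.5 ± 2.0 CPM in Homo and 8.28 ± 7.8 CPM in Het (SD, n = 3 each). The groups overlapped, and the log2 difference of 0.38 (SE 0.58, 95% interval -0.75 to 1.51) did not pass the test (edgeR adjusted p = 0.863). Leaving out Het replicate 1 turned the sign, to -0.09 (edgeR adjusted p = 0.922), and leaving out Het replicate 3 gave 1.47 (edgeR adjusted p = 0.936). Of the 3581 features tested 0.0279% was called.

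The other 7 genes were too low in small RNA to be tested. 4930568E12Rik had 9, 5 and 4 counts in Homo and 9, 5 and 6 counts in Het, a near match in each group. Col28a1 had 3 counts in Homo and 2 in Het, Hs6st2 had 0 and 2, and Scoc had 0 and 1 over the same groups. Adamts9, 4930486L24Rik and Gprin3 had 0 counts in Homo and 0 in Het, which allows up to 0.780 CPM in Homo and 0.757 CPM in Het, covering counting error only.

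**Figure D4:**
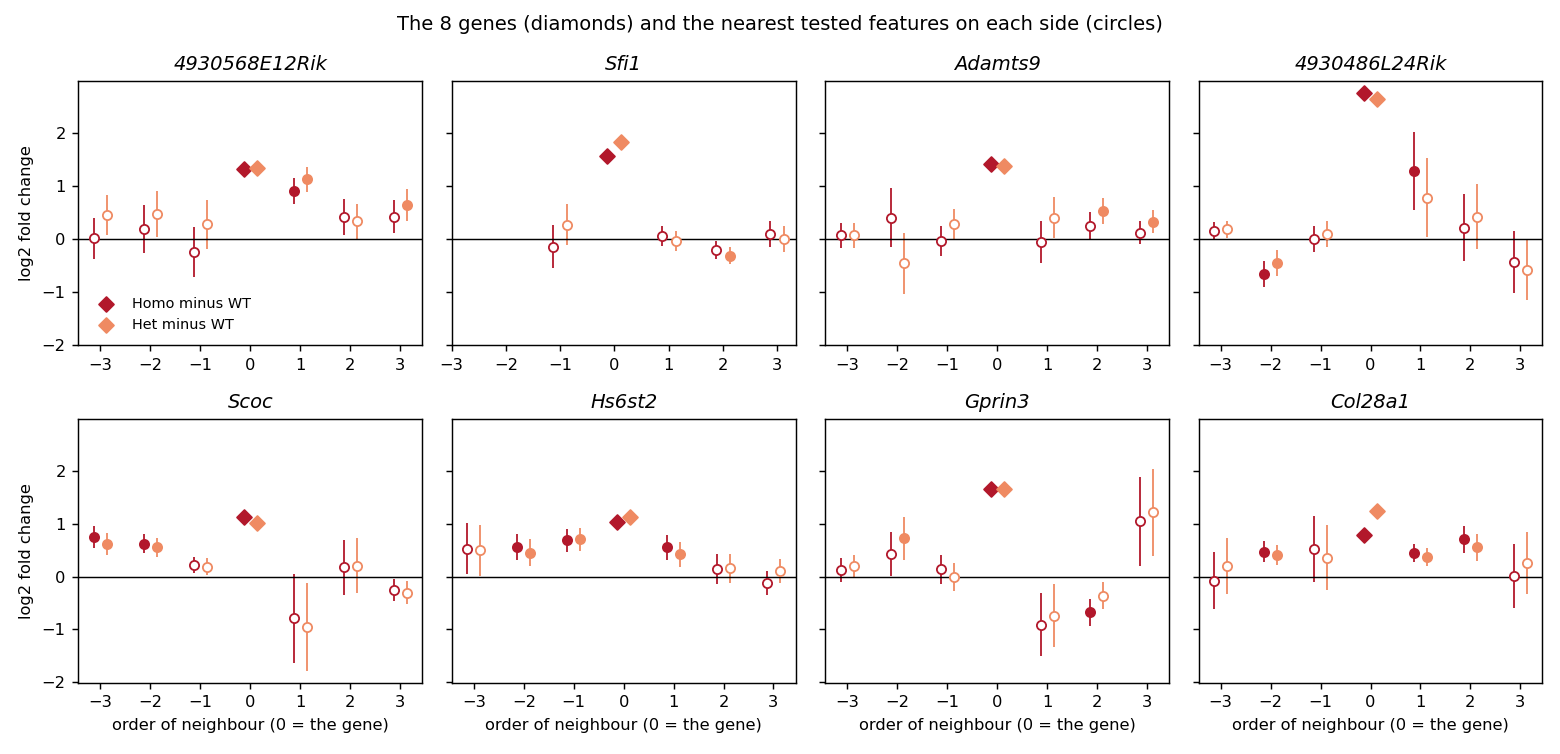
Log2 fold change (y axis) of the 8 genes (diamonds at 0) and of the nearest tested features on each side in chromosome order (circles, filled where the edgeR adjusted p was under 0.05; bars 95% intervals), for Homo minus WT and Het minus WT. The diamonds are the values the 8 genes were chosen for, and filled circles above 0 in both comparisons lie beside 4930568E12Rik, Scoc, Hs6st2 and Col28a1.

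Some of the genes around the 8 rose as well. Among 46 neighbours, up to 3 tested features on each side, 10 rose and 2 fell in Homo against WT, so that 21.7% rose where 9.68% of all tested features did. In Het against WT 13 rose and 2 fell, 28.3% against 11.1%. Median log2 differences were 0.15 in Homo and 0.28 in Het, against -0.01 and 0.00 over all features. Neighbours share chromosomal regions and were not tested as a set. The 9 that rose in both, 19.6% of the 46 where 7.53% of all features did, lay beside 4 of the 8 genes: 1 beside 4930568E12Rik, 2 beside Scoc, 3 beside Hs6st2 and 3 beside Col28a1. Beside refers to chromosome order, and gaps ran up to 2186 kb over the 46. Mbnl3 lay 181 kb and Rap2c 369 kb from Hs6st2, and C1galt1 lay 122 kb from Col28a1. Chromosome X, where Hs6st2 lies, held 8.98% of the features raised alike and 4.34% of those tested. In the alternative settings 6 to 10 neighbours rose in both, the fewest without Het replicate 3.

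The closest of these 9 was Gm47051, which starts 154 bases from 4930568E12Rik on the other strand. It had 13.1, 13.1 and 15.8 CPM in Homo, 16.1, 15.0 and 17.7 CPM in Het, and 7.74, 6.87 and 7.78 CPM in WT. The WT libraries were below all others, as for its partner. Gm47051 rose by a log2 difference of 0.91 in Homo (SE 0.12, edgeR adjusted p = 0.000985) and 1.12 in Het (SE 0.12, edgeR adjusted p = 0.000242), and both calls held under every alternative. The 2 RNAs that leave the capital stretch printed above were thus both higher in the mutants, 4930568E12Rik by 1.32 and 1.34 on the log2 scale.

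Beside Scoc, Elmod2, a GTPase-activating protein for ARL family proteins, rose by 0.75 in Homo and 0.62 in Het (edgeR adjusted p = 0.00132 and 0.00358), and Mgat4d, a testis glycosyltransferase-like gene, by 0.62 and 0.55 (edgeR adjusted p = 0.00158 and 0.00319). Beside Hs6st2, the splicing regulator Mbnl3 rose by 0.69 in Homo and 0.70 in Het (edgeR adjusted p = 0.00265 and 0.00266), the small GTPase gene Rap2c by 0.56 and 0.45 (edgeR adjusted p = 0.0120 and 0.0248), and the deubiquitinase gene Usp26 by 0.55 and 0.42 (edgeR adjusted p = 0.00970 and 0.0265). Beside Col28a1, Rpa3, a subunit of replication protein A, rose by 0.71 in Homo and 0.55 in Het (edgeR adjusted p = 0.00484 and 0.0117), C1galt1, an O-glycan synthase, by 0.47 and 0.40 (edgeR adjusted p = 0.00794 and 0.0138), and Mios, a part of the amino-acid sensing GATOR complex, by 0.45 and 0.37 (edgeR adjusted p = 0.00583 and 0.0114). The single neighbour that fell in both, as 9.2% of all features did, was Gas1, beside 4930486L24Rik, by 0.66 in Homo and 0.46 in Het (edgeR adjusted p = 0.00581 and 0.0210).

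Some of these calls rested on single libraries. Rap2c lost its Homo call without Homo replicate 2 (adjusted p = 0.0551, edgeR) and its Het call without WT replicate 1, WT replicate 2, Het replicate 1 or Het replicate 3 (0.0552 to 0.0800). Usp26 lost its Het call without WT replicate 2, WT replicate 3, Het replicate 1 or Het replicate 3 (adjusted p 0.0548 to 0.103). C1galt1 lost its Het call without Het replicate 3 (0.0543), and Gas1 without WT replicate 1, WT replicate 3 or Het replicate 3 and without scaling (0.0586 to 0.0735). Adamts9, Gprin3 and Sfi1 had no neighbour called in the same direction in both comparisons.

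Genes related to 7 of the 8 by pathway or family or, for 4930486L24Rik, by position were counted from lists. Over all tested features 11.1% fell in Homo and 12.9% in Het, beside the shares that rose given above. For Hs6st2, 6 of 31 tested genes of heparan sulfate synthesis, editing and core proteins rose and 4 fell in Homo, and 8 rose and 4 fell in Het (medians -0.06 and 0.01). Hs3st1, a heparan sulfate 3-O-sulfotransferase, rose by 0.97 in Homo and 1.05 in Het (edgeR adjusted p = 0.00117 and 0.000751). Hs3st1 averaged 6.48 ± 0.59 CPM in Homo, 6.83 ± 0.29 CPM in Het and 3.30 ± 0.21 CPM in WT (SD, n = 3 each). Gpc3, a glypican core protein, rose by 1.12 and 1.07 (edgeR adjusted p = 0.00610 and 0.00660) and Glce, the glucuronyl epimerase, by 0.46 and 0.35 (edgeR adjusted p = 0.00449 and 0.0133). The calls of these 3 held under every alternative. The 4 that fell in both, named after their values were seen, were 3 further core proteins and the enzyme that degrades the chains. The syndecan Sdc1 fell by 0.73 in Homo and by 0.68 in Het (edgeR adjusted p = 0.00649 and 0.00753), the syndecan Sdc3 by 0.49 and 0.54 (edgeR adjusted p = 0.0430 and 0.0252), the glypican Gpc1 by 0.73 and 0.72 (edgeR adjusted p = 0.0140 and 0.0131), and the heparanase gene Hpse by 1.07 and 0.88 (edgeR adjusted p = 0.0128 and 0.0242). The Sdc1 calls held under every alternative. Without WT replicate 1, Gpc1 and Hpse lost both calls, as they did for Homo without Homo replicate 3 and for Het without Het replicate 3 (Gpc1 0.0511 to 0.0624, Hpse 0.0515 to 0.108). Sdc3 lost its Homo call without any single WT or Homo library and in 2 other settings (0.0607 to 0.135), and its Het call without WT replicate 1 or 2 or Het replicate 1 or 3 and without scaling (0.0706 to 0.0934).

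For Adamts9, 3 of 24 tested ADAMTS proteases and their hyalectan substrates rose and 1 fell in Homo, and 5 rose and 0 fell in Het (medians 0.19 and 0.21). Adamts5, another aggrecan-cleaving protease, rose by 0.62 in Homo and 0.73 in Het (edgeR adjusted p = 0.0125 and 0.00599), Adamts12 by 0.62 and 0.70 (edgeR adjusted p = 0.0207 and 0.0119), and Adamts1 by 0.76 and 0.82 (edgeR adjusted p = 0.0442 and 0.0291). Adamts5 lost its Homo call without Homo replicate 3 (0.0632), and Adamts12 lost it without WT replicate 1, WT replicate 3 or Homo replicate 3 (0.0626 to 0.0990). Adamts1 lost its Homo call without any WT library, Het replicate 3, Homo replicate 2 or Homo replicate 3 (0.0512 to 0.154) and its Het call without any WT library, Het replicate 1 or Het replicate 3 (0.0507 to 0.107).

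For Col28a1, 2 of 40 tested collagen genes rose and 3 fell in Homo, and 4 rose and 4 fell in Het (medians 0.04 and 0.13). Col23a1, a transmembrane collagen, fell by 0.87 in Homo and by 0.77 in Het (edgeR adjusted p = 0.00812 and 0.0114), and the calls held under every alternative. The fibrillar collagen genes Col3a1 and Col5a2 rose by 0.53 and 0.48 in Homo (edgeR adjusted p = 0.0181 and 0.0327) and by 0.41 and 0.46 in Het (edgeR adjusted p = 0.0458 and 0.0341). Col3a1 lost its Homo call without WT replicate 2, Homo replicate 2 or Homo replicate 3 (0.0674 to 0.0774) and its Het call without any WT library, Het replicate 2, Het replicate 3 or Homo replicate 2 (0.0603 to 0.154). Col5a2 lost its Homo call without any WT library, Homo replicate 2 or Homo replicate 3 (0.0511 to 0.134) and its Het call without any WT library, Het replicate 2 or Het replicate 3 (0.0562 to 0.102).

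For Sfi1, 8 of 24 tested centrin and centriole genes rose and 1 fell in Homo, and 9 rose and 1 fell in Het (medians 0.21 and 0.21). The centrin gene Cetn3 rose by 0.40 and 0.35 (edgeR adjusted p = 0.0115 and 0.0185), and the centriole assembly genes Cep152 by 0.57 and 0.72 (edgeR adjusted p = 0.0148 and 0.00535) and Cep135 by 0.36 and 0.35 (edgeR adjusted p = 0.0205 and 0.0209). Cetn3 lost its Homo call without Homo replicate 2 or 3 (0.0521 to 0.0545) and its Het call without WT replicate 2 or Het replicate 3 (0.0639 to 0.0657). Cep152 lost its Homo call without WT replicate 3, Homo replicate 2 or Homo replicate 3 and with both strands summed (0.0564 to 0.0675). Cep135 lost its Homo call without WT replicate 2 or 3 or Homo replicate 2 or 3 (0.0691 to 0.0725) and its Het call without WT replicate 2 or 3 or Het replicate 3 (0.0664 to 0.0782).

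For Scoc, 2 of 19 tested ARL1, golgin and autophagy partners rose and 0 fell in Homo, and 3 rose and 0 fell in Het (medians 0.04 and -0.01). The golgin genes Golga4 and Gcc2 rose by 0.30 and 0.33 in Homo (edgeR adjusted p = 0.0297 and 0.0327) and by 0.28 and 0.30 in Het (edgeR adjusted p = 0.0387 and 0.0401). Golga4 lost its Homo call without WT replicate 1, WT replicate 2 or any Homo library (0.0577 to 0.113) and its Het call without any WT library, Het replicate 3, Homo replicate 1 or Homo replicate 2 and in 2 other settings (0.0570 to 0.127). Gcc2 lost its Homo call without WT replicate 2 or 3 or Homo replicate 2 or 3 (0.0821 to 0.111) and its Het call without any single library but Het replicate 2 and in 1 other setting (0.0502 to 0.148). For Gprin3, 2 of 5 tested GPRIN and Gi/o/z subunit genes rose and 0 fell in both comparisons, with medians of -0.10 in Homo and 0.08 in Het. Gnai3 rose by 0.40 in Homo and 0.28 in Het (edgeR adjusted p = 0.00710 and 0.0248) and Gnai1 by 0.53 and 0.60 (edgeR adjusted p = 0.0192 and 0.0102). Gnai3 lost its Het call without WT replicate 2, WT replicate 3 or Het replicate 3 (0.0640 to 0.0859), and Gnai1 its Homo call without WT replicate 1, Homo replicate 2 or Homo replicate 3 (0.0616 to 0.0868).

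4930486L24Rik lies 30.9 kb from Ctla2b, and cathepsin and Ctla2 propeptide-like genes were counted for it. Ctla2b itself averaged 0.644 ± 0.14 CPM in Homo, 0.447 ± 0.079 CPM in Het and 0.272 ± 0.12 CPM in WT (SD, n = 3 each). It rose by 1.28 in Homo (edgeR adjusted p = 0.0321), while its 0.78 in Het did not pass (edgeR adjusted p = 0.156). The Homo call of Ctla2b was lost without WT replicate 1, WT replicate 2, Homo replicate 1 or Homo replicate 3 and with DESeq2 (adjusted p 0.0639 to 0.115). Of 11 tested, Ctla2b included, 1 rose and 2 fell in Homo, and 0 rose and 2 fell in Het (medians -0.20 and -0.13). Those that fell in both were Ctsh, by 0.75 in Homo and 0.61 in Het (edgeR adjusted p = 0.00705 and 0.0137), and Ctsf, by 0.34 and 0.53 (edgeR adjusted p = 0.0353 and 0.00541). Ctsh lost its Het call without WT replicate 1 (0.0520), and Ctsf its Homo call without any single one of the WT or Homo libraries and without scaling (0.0577 to 0.117). Over the features raised alike as a whole, the median log2 difference was 0.47 in both comparisons, and 105 of the 1493 were higher by at least 2-fold in both, as were 7 of the 8 genes. Over all 20782 tested features 219 were. The 8 genes were chosen on these differences, so nothing is read from their count. The median gene body was 42.8 kb over the features raised alike and 10.5 kb over those lowered alike by the same limit. It was 18.6 kb over all tested features and 70.3 kb over the 8 genes. Counts cover whole gene bodies, and the part of length in these differences was not tested.

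**Figure D5:**
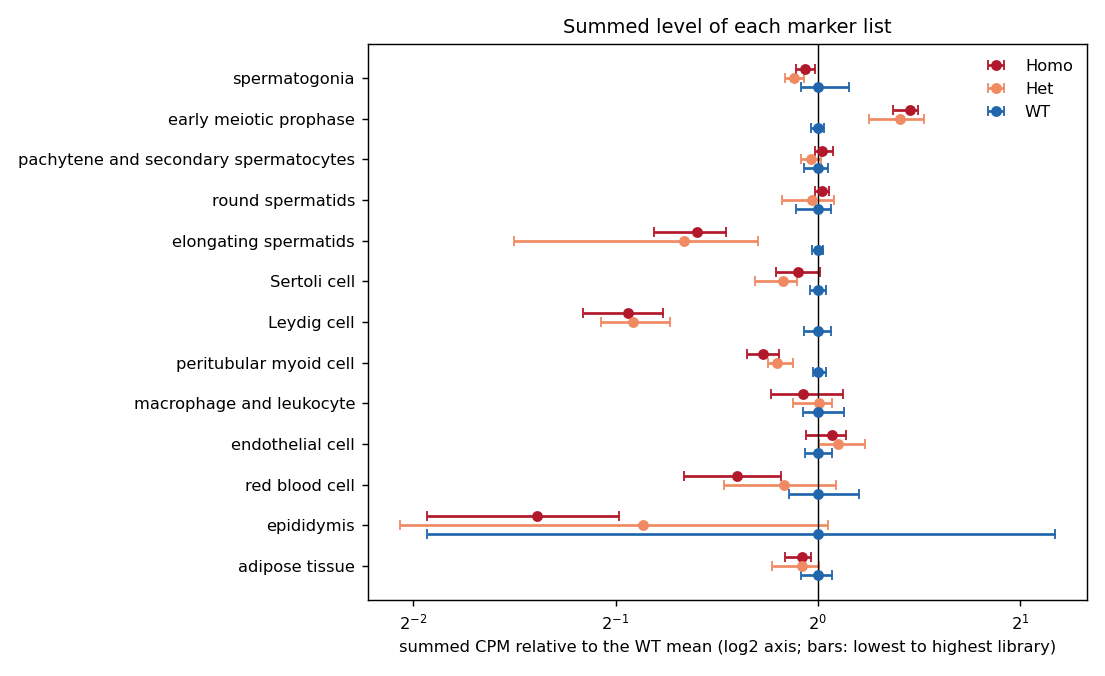
Summed CPM of each marker list relative to its WT mean (x axis, log2-spaced) in Homo, Het and WT; points are group means and bars run from the lowest to the highest library. The early meiotic prophase list lies above 1 and the elongating spermatid and Leydig cell lists below 1 in both Homo and Het.

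Markers of cell types moved with the same split of libraries as the 8 genes. Early meiotic prophase markers, such as the synaptonemal complex genes, summed to 3188 to 3479 CPM in Homo, 2934 to 3549 CPM in Het and 2409 to 2515 CPM in WT, and 11 of 20 rose in each comparison (0 fell in Homo and 2 in Het). For the elongating spermatid markers given above, 9 of 20 fell in Homo and 12 in Het, and none rose. Leydig cell markers summed to 652 to 856 CPM in Homo, 694 to 879 CPM in Het and 1391 to 1525 CPM in WT, with 8 of 13 tested falling and 1 rising in each comparison. The defining marker Insl3 was listed at 0 in all 9 libraries, as were Pou5f2 and Ndst1 of other lists. The reason was not tested, and these 0 counts are not read as absence of the RNA. Peritubular myoid markers summed to 411 to 458 CPM in Homo, 442 to 481 CPM in Het and 516 to 538 CPM in WT, with 3 of 10 falling in Homo and 2 in Het. The part of these shifts in the levels of the 8 genes was not tested. Summed Sertoli cell markers overlapped WT in Homo (984 to 1145 CPM) and lay below it in Het (917 to 1056 CPM, against 1104 to 1168 CPM in WT). Of the 14 Sertoli markers tested, 0 were called in Homo, and 2 rose and 0 fell in Het (medians -0.10 and -0.09). Red blood cell markers lay below WT in Homo (29.4 to 41.0 CPM) and overlapped it in Het (33.7 to 49.5 CPM, against 42.0 to 53.5 CPM in WT). In the other 7 lists the summed ranges of both Homo and Het overlapped that of WT, and over these 9 lists at most 3 genes of a list were called in a direction.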

How the data were processed

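The values are raw counts that the authors deposited, 1 table per library, made with featureCounts per the file headers: RNA-seq reads over whole gene bodies on the strand of the kit, with a second table for the opposite strand, and small RNA reads over exons. Reads were aligned with HISAT2 2.1.0 and the builds named are mm10 and mm9, per the submitters' processing notes; gene coordinates here are those of the mm10 tables. Of 49585 gene IDs 49326 matched a symbol in the GENCODE reference, and 466 further features are piRNA precursors.

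Features with too few counts were dropped (filterByExpr by group), libraries scaled by TMM, and contrasts tested with edgeR 4.0.16 (quasi-likelihood, R 4.3.3), with p-values adjusted by Benjamini-Hochberg over all features tested (20782 in RNA-seq, 3581 in small RNA) and called under 0.05. The test was checked on simulated data. All 9 RNA-seq libraries entered 1 fit, and no 2 libraries of a group agreed within sampling noise. They were unevenly alike. The chi-square per degree of freedom between WT replicates 2 and 3 was 3.12, against 47.6 and 50.7 between WT replicate 1 and each of them. Between small RNA Het replicates 2 and 3 it was 2.11, against 25.7 and 27.2 with Het replicate 1. Alternatives were DESeq2 1.42.0, other scalings and filters, both strands summed, only the groups compared, and each library left out. Applying them to the named genes, the neighbours and the count raised alike, and the filters to the 8 genes, was chosen after seeing the data.

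The 8 genes, the gene lists and the 13 marker lists were chosen with earlier results of these data known. Named besides the 8 are neighbours called in the same direction in both comparisons with WT, up to 3 called genes per related list, the 5 closest profiles (log2 CPM with 0.1 added), features that overlap one of the 8, and genes with similar sequence, Ctla2b and the heparan sulfate genes that fell in both, chosen after their values were seen. Promoter and transcript sequences were compared with BLAST 2.17.0. The 95% intervals of log2 differences are normal intervals from the fitted standard errors. They make no allowance for the few libraries behind each standard error and are too narrow. The Homo minus Het intervals of Sfi1, which ends near 0, and of Col28a1 are not read as a difference.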

Additional observations from a re-analysis of the deposited data

How the results depend on the processing

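The log2 differences of the 8 genes were recomputed 256 times under other settings. None changed sign, 249 moved by less than 1 SD of the libraries, and the values ran from 0.64 to 2.87. Since the genes were chosen on these libraries, their constant sign is no sign of stability. Leaving out 1 library gave 1805 to 4737 called features in Homo against WT (4319 with all; 2760 without WT replicate 2, 2814 without WT replicate 3, 1899 without Homo replicate 2, 1805 without Homo replicate 3), 2432 to 4720 in Het against WT (4977 with all; 2901 without WT replicate 1, 2432 without Het replicate 3), and 4 to 18 in Homo against Het (6 with all, 638 at an unadjusted p under 0.05; 18 without Het replicate 3). DESeq2 called 17 and no filter 13 in Homo against Het. Features raised alike numbered 654 to 1400 with 1 library left out (1493 with all; 805 without WT replicate 2, 863 without WT replicate 3, 830 without Het replicate 3, 691 without Homo replicate 2, 654 without Homo replicate 3), and 6 or 7 of the 8 genes were among them in each. Without scaling, 2225 features rose and 1688 fell in Homo, against 2012 and 2307 with it, and 3175 rose and 1575 fell in Het, against 2302 and 2675, as the median over all features moved to 0.10 in Het. The antisense gene 9530026P05Rik ran from -0.23 to 0.10 in Homo against WT with 1 library left out, above 0 without WT replicate 2 or Homo replicate 2, and stood at 0.035 with both strands summed, none of them called. With both strands summed 4930481A15Rik turned to -1.15 in Homo and -0.78 in Het, and Eps8l1 in Het ran from -0.25 to 0.078 with 1 library left out, above 0 without WT replicate 2. Small RNA of Sfi1 ran from -0.085 (without Het replicate 1) to 1.47 (without Het replicate 3). Small RNA calls numbered 1 (312 at an unadjusted p under 0.05), 43 without a filter, and 0 to 617 with 1 library left out: 617 without Het replicate 1, and 0 without Homo replicate 2 or 3. With the replicate number as a block 0 were called. The numbers do not pair these libraries, since same-numbered deviations correlated at -0.16, 0.0028 and -0.088. The cause of these changes was not tested. Depth limits Gprin3 and 4930486L24Rik, whose WT libraries hold 12 to 56 counts.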
